A study of Mus musculus with 12 samples.

Results

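The locus of Fzd5 and Ccnyl1 on mouse chromosome 1 was examined for acetylation of histone H3 at lysine 27 (H3K27ac), a mark carried by nucleosomes at active promoters and enhancers, in embryonic cortex with and without Prdm16. The members are the genes Fzd5 and Ccnyl1, 2 of 21883 protein-coding genes. They were selected on the difference in these same libraries between the genotypes, so their own values and those of the sites around them are given as a description, with no test. The window ran from 200 kb below the Ccnyl1 gene body to 200 kb above Fzd5 (chr1:64491041-64937750, mm10). It held 20 of the 85918 regions formed by merging the peaks of 6 lists. The conditional knockout (cKO) embryos were Emx1Ires-Cre; Prdm16flox/flox, and the wild-type (WT) embryos were Prdm16 flox/flox without Cre, so both carried the floxed allele. Each genotype had 3 libraries from whole cortex lysates at E15.5, made by native chromatin immunoprecipitation after micrococcal nuclease digestion, with antibody ab4729. Emx1-driven Cre acts in dorsal forebrain progenitors and their progeny, so interneurons from the ventral forebrain, vessels and microglia in the lysate keep Prdm16. Nothing in the labels says that replicates came from separate embryos, so the spread between libraries may be technical.

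Prdm16 is a zinc-finger protein that acts on chromatin in neural stem and progenitor cells. Fzd5 encodes a Frizzled receptor, a membrane protein that binds secreted Wnt ligands together with the co-receptors Lrp5 and Lrp6 and passes the signal to Dishevelled proteins, and it is known for its part in eye and forebrain development. Ccnyl1 encodes a relative of cyclin Y. Cyclin Y binds the kinase Cdk14 at the membrane, and that complex phosphorylates Lrp6, a step in the reception of Wnt signals.

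Fzd5 (chr1:64730558-64737750) is read from the minus strand and starts at 64737750. Ccnyl1 (chr1:64691041-64725646) lies below it, and is read from the plus strand. Its gene body begins at 64691041, while the promoter table lists a start at 64691345, inside that body. The stretches from 250 bases before each listed start to 50 after it are printed 5′ to 3′ because the H3K27ac peak was short over the one at Fzd5 and spanned the one at Ccnyl1. The Fzd5 stretch lies mostly upstream of its gene and the Ccnyl1 stretch lies wholly within its gene. The counts below are therefore set beside all promoter windows, and nothing is read from a difference between the pair. The sequences are from RefSeq (GRCm38.p6, the assembly behind mm10), and capitals mark GC boxes (GGGCGG on either strand).
Fzd5 (chr1:64737701-64738000, minus strand): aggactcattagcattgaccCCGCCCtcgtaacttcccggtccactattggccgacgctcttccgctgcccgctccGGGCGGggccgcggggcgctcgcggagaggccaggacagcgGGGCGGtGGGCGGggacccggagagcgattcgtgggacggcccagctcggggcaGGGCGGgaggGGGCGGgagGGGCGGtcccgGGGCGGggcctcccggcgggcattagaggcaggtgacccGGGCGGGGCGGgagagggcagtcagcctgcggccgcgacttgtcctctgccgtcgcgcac
Ccnyl1 (chr1:64691095-64691394, plus strand): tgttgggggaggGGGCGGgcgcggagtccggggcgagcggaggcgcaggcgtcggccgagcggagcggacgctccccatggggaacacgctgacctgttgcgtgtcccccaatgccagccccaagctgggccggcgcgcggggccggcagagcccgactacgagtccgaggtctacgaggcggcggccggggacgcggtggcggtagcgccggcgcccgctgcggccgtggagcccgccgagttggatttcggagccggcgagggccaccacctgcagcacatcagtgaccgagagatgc
The Fzd5 stretch held 10 GC boxes, of which the last pair overlap, and the Ccnyl1 stretch held 1. A GC box was present in 35.63% of 32817 promoter windows of this length. Both were rich in CpG, with 38 in Fzd5 and 42 in Ccnyl1 against a median of 7 over all windows, and 95.04% and 96.97% of windows held fewer. The G and C content was 75.67% in Fzd5 and 75.0% in Ccnyl1, against a median of 52.67%. Each window held 1 CCAAT (in 37.39% of windows) and 1 CANNTG E-box (in 72.32%). The TCF/LEF core CTTTGA, read on both strands like the others, was in neither window and in 16.0% of all.

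The lists held 59209, 58682 and 55015 peaks in cKO replicates 1 to 3, against 66493, 75563 and 48168 in WT replicates 1 to 3. They carry no read counts, so the depth is unknown, and WT replicate 3 was the shortest list and WT replicate 2 the longest. Of 12 dorsal cortex markers, 12 had peaks in all 6 lists, and their summed covered length, scaled to equal totals, was 300.5 to 324.2 kb in cKO and 278.8 to 351.3 kb in WT. Of 6 ventral forebrain markers, 5 had peaks in all 6 lists (105.8 to 115.0 kb in cKO, 88.4 to 113.9 kb in WT) and Nkx2-1 was at 0. Of 6 eye and hypothalamus markers, 1 had peaks in all 6 lists (1.50 to 1.88 kb in cKO, 1.74 to 2.29 kb in WT), and Six6 and Otp were at 0. Of 5 markers of the cortical hem and choroid plexus, 3 had peaks in all 6 lists (7.12 to 8.30 kb in cKO, 6.15 to 9.25 kb in WT) and Otx2 was at 0. Of 6 vascular, microglial and meningeal markers, 4 had peaks in all 6 lists (19.4 to 21.3 kb in cKO, 20.3 to 21.7 kb in WT). The ranges of the genotypes overlapped for each of these lists, and their part in the values below was not tested. Prdm16 itself (gene body and 20 kb on each side) had 94197, 93567 and 97997 bp under peaks after scaling in cKO and 82484, 79134 and 77832 bp in WT. The log2 difference of 0.25 ± 0.09 (SE) did not pass in limma, a linear model fitted across all genes (adjusted p = 0.377). Covered length at that gene does not check the deletion.

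The promoter of Fzd5 carried the mark in all 6 libraries but over a shorter stretch in cKO. The region (chr1:64735960-64738776) had 225, 200 and 387 bp under peaks in cKO replicates 1, 2 and 3, against 1741, 1612 and 1754 bp in WT replicates 1, 2 and 3. Every cKO value lay below every WT value. The mean over the region was 271 ± 102 bp in cKO and 1702 ± 78.5 bp in WT (SD, n = 3 each), so the cKO mean was 15.9% of the WT mean. In WT replicates 1 and 2 the region held 2 peaks, of which 1 lay over the start. That peak was 1418 and 895 bp long, and the other, inside the gene, 323 and 717 bp. The single WT replicate 3 peak of 1754 bp joined them. The 15.9% and the SD therefore describe the merged region, not the peak over the start. In a bulk lysate, fewer acetylated cells and less acetylation per cell cannot be told apart.

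The short cKO peaks did not lie on the same bases. No base was under a peak in all 3 cKO libraries (0 bp), whereas 999 bp were under a peak in all 3 WT libraries, and 312 bp of these had a peak in 0 cKO libraries. In the printed Fzd5 promoter of 300 bases, the cKO replicate 1 peak covered bases 1 to 165, upstream of the start site. The cKO replicate 2 peak covered bases 164 to 300, and the cKO replicate 3 peak covered bases 241 to 300, both reaching over the start. The WT peaks covered all 300 bases in each library. Each cKO value was lower than each WT value here, as in 0.935% of the 14124 promoter windows that held a peak in all 3 WT lists. The printed Ccnyl1 stretch was covered over all 300 bases in all 6 libraries, and so were the windows at the listed starts of Creb1, Mettl21a and Plekhm3. Each Ccnyl1 peak began at or below 64690106 and ended at or above 64691626, so it also spanned the first base of the gene body.

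The Fzd5 promoter peaks were weak in both genotypes. The authors' −log10 q is larger for a peak that stands out more from its background. Its highest value per library in the merged promoter region was 1.98, 1.92 and 2.43 in cKO, against 4.09, 2.27 and 2.48 in WT. Within its own list, the cKO peak exceeded 6.54%, 8.03% and 14.2% of peaks, and the highest WT peak of the region exceeded 44.5%, 17.7% and 11.6%. The genotypes overlapped in this rank, because WT replicate 3 stood below cKO replicate 3. The authors' highest fold enrichment in the region was 3.23, 3.19 and 3.70 in cKO and 4.23, 3.18 and 3.96 in WT. In WT replicate 2 these values belong to the peak inside the gene. Its peak over the start had a −log10 q of 2.15, exceeded 15.2% of its list and had an enrichment of 3.11, below each cKO value. The length under peaks separated the genotypes where rank and enrichment did not. With weaker peaks removed (−log10 q below 5), no list held one at this promoter, and in lists reduced to the same number of peaks the genotypes overlapped, with 0, 0 and 387 bp in cKO and 1418, 0 and 1754 bp in WT.

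**Figure D1:**
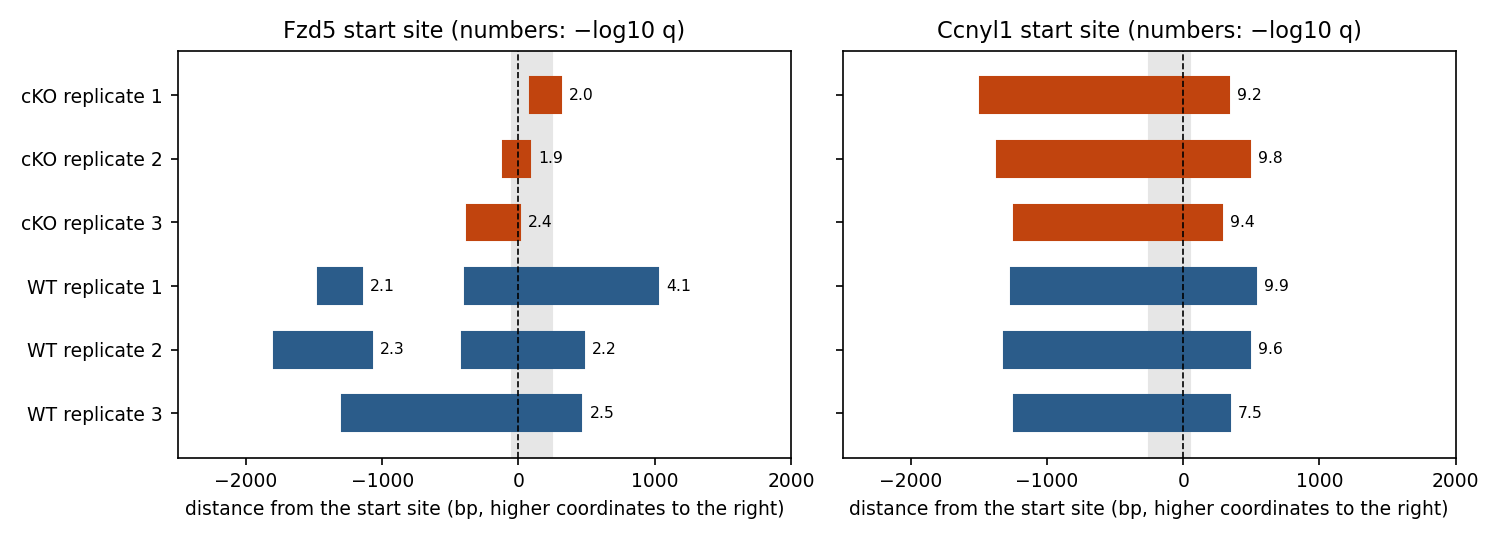
Peaks of each library around the listed start sites of Fzd5 (left) and Ccnyl1 (right), cKO rows above WT rows; the x axis is distance from the start site in bp, the grey band is the printed stretch and the number beside a peak is its −log10 q. At Fzd5 the cKO peaks span 200 to 387 bp and the WT peaks 1612 to 1754 bp in all, split into 2 peaks in WT replicates 1 and 2. At Ccnyl1 the bars are of like length in both genotypes.

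Ccnyl1 differed from Fzd5 in where its mark was short. Its promoter region (chr1:64689856-64691880), which also covers the start of the non-coding gene 2810408I11Rik on the other strand, had 1828, 1855 and 1521 bp under peaks in cKO, against 1799, 1801 and 1585 bp in WT. The genotypes overlapped, with means of 1735 ± 186 bp in cKO and 1728 ± 124 bp in WT (SD, n = 3 each). The −log10 q there was 9.20, 9.81 and 9.37 in cKO and 9.87, 9.64 and 7.47 in WT, well above the values at the Fzd5 promoter in both genotypes.

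Inside the Ccnyl1 body, between its own start and that of Fzd5, the picture was different. Distances are given from the Fzd5 start, negative towards Ccnyl1. The site centred at -25.6 kb (chr1:64711235-64713129) had 0, 815 and 0 bp in cKO, against 1895, 1781 and 544 bp in WT. The genotypes overlapped at this site, since cKO replicate 2 exceeded WT replicate 3. The site at -17.9 kb (chr1:64719565-64720159) had 0 bp in each of the 3 cKO lists, against 523, 585 and 395 bp in WT. Its −log10 q was 3.89, 5.43 and 2.07 in WT.

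This site at -17.9 kb was the 1 region of the window that had peaks in the 3 WT libraries and in 0 of the cKO libraries. The window held 10 regions with a peak in all 3 WT libraries, so that is 1 of 10, against 1.76% of such regions in the genome, and 1 of 20 against 0.907% of all regions. No region of the window had the converse pattern (0 of 20, against 0.347% in the genome). By its lowest WT −log10 q of 2.07 the site stood 420th of the 779 WT-only regions of the genome, whose median was 2.13. The count of such regions in the window was 3 without cKO replicate 2 and 4 without WT replicate 3.

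The Ccnyl1 gene window (body and 20 kb on each side) ends beyond the Fzd5 promoter, and it holds the same peaks as the Fzd5 gene window plus the Ccnyl1 promoter region. After scaling to equal totals, Fzd5 had 224, 1026 and 434 bp in cKO, against 3703, 3391 and 3500 bp in WT. Ccnyl1 had 2040, 2901 and 2140 bp in cKO, against 5305, 4867 and 5561 bp in WT. The higher value of cKO replicate 2 in both came from the 815 bp at -25.6 kb. Every cKO value lay below every WT value for both genes, as for 5.85% of all 15355 genes tested.

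On the scale of log2(scaled covered length + 500 bp), the cKO minus WT difference was -2.00 ± 0.22 (SE) for Fzd5 and -1.02 ± 0.13 for Ccnyl1. These were the 2nd and the 12th lowest of 15355 genes, whose median was 0.03. The Fzd5 value also takes in sites inside the Ccnyl1 body, so its rank is not that of the Fzd5 promoter alone. Of its unscaled 4159, 4139 and 2693 bp in WT, the promoter region held 1741, 1612 and 1754 bp. Across all genes limma called 0.156% shorter and 0.124% longer in cKO, and nothing is read from that for Fzd5 and Ccnyl1, which were chosen on this contrast. Because the windows share their peaks, the 2 differences are not separate observations. Their size depended on the setting: the Fzd5 difference was -2.65 with a pseudocount of 100 bp and -1.06 with 100 kb flanks, and the Ccnyl1 difference was -0.063 once peaks with −log10 q below 5 were removed.

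**Figure D2:**
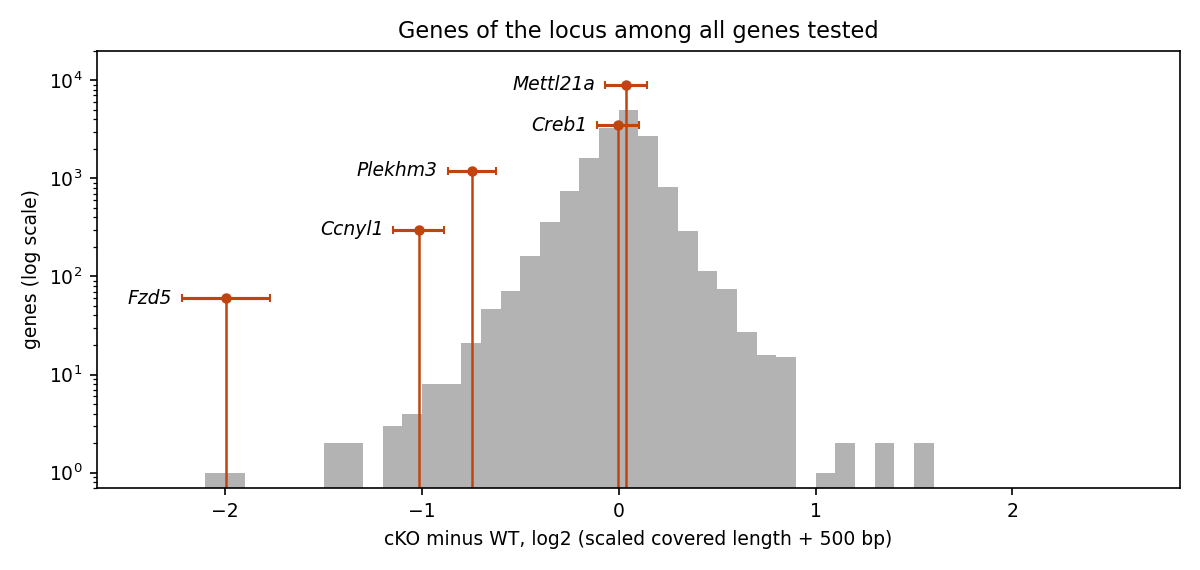
Histogram of the cKO minus WT difference in log2(scaled covered length + 500 bp) over 15355 genes, with genes counted on a log scale; points with bars are the 5 protein-coding genes of the locus with their SE. Fzd5 at -2.00 and Ccnyl1 at -1.02 lie in the lower tail, Plekhm3 at -0.75 is next, and Creb1 (-0.00) and Mettl21a (0.04) lie near 0.

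Over the whole window, peaks covered 9800, 11268 and 9722 bp in cKO, against 18789, 21317 and 12585 bp in WT. Scaled to equal totals this was 9737, 11390 and 10907 bp in cKO and 16730, 17467 and 16359 bp in WT, with means of 10678 ± 850 bp in cKO and 16852 ± 564 bp in WT (SD, n = 3 each). The genotypes did not overlap on either scale. The difference of -0.66 on the log2 scale was -0.70 in the batch of replicates 1 and 2 and -0.58 in the batch of replicate 3, as marked by the library identifiers. The number of peaks in the window was 7, 10 and 8 in cKO and 16, 18 and 10 in WT, which overlapped because cKO replicate 2 and WT replicate 3 had 10 each.

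**Figure D3:**
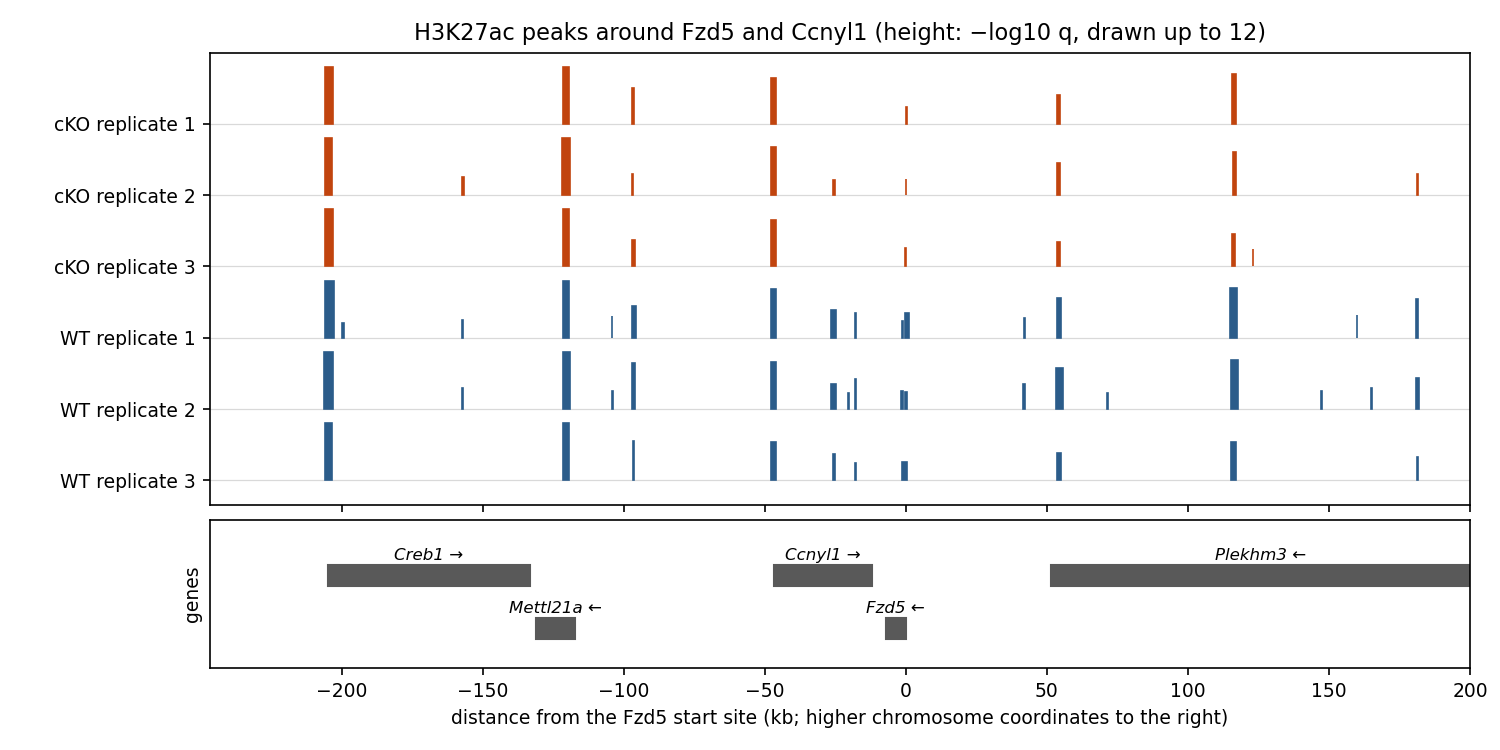
Peaks of each library across the window, cKO rows above WT rows; the x axis is distance from the Fzd5 start site in kb, bar height is −log10 q drawn up to 12, and gene bodies with their direction are below. Of the 7 sites up to the Ccnyl1 start 4 have a peak in all 6 libraries, and of the 13 to its right 3 do, each of those narrower in every cKO library than in every WT library.

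The window was then split at the Ccnyl1 start, a split made after the values were seen. The 7 sites up to that start covered 7555, 7698 and 7294 bp in cKO, against 9394, 9015 and 6661 bp in WT, and the genotypes overlapped. The 13 sites inside Ccnyl1 and beyond covered 2245, 3570 and 2428 bp in cKO, against 9395, 12302 and 5924 bp in WT, and the genotypes did not overlap. After scaling, the cKO mean was 96.2% of the WT mean on the first side and 32.8% on the second. Most of the length on the first side belonged to the promoter regions of Creb1, Mettl21a and Ccnyl1. Its 4 other sites covered 446, 637 and 860 bp in cKO, against 2244, 1724 and 247 bp in WT, where WT replicate 3 was the lowest of all 6 libraries. The scaled cKO mean of these 4 was 55.0% of the WT mean, with overlap, against 36.7% for the 12 sites at no gene start on the second side, without overlap. Whether the sides differ was not tested.

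Of the 7 sites with a peak in all 6 libraries, 3 had every cKO value below every WT value, against 5.94% of the 39889 such regions in the genome. The 3 were the Fzd5 promoter and a pair of sites inside Plekhm3, a gene for a protein with a pleckstrin homology domain that starts 219 kb above Fzd5 and is read towards it. The 4 others, all on the first side, overlapped between the genotypes. No site had every cKO value above every WT value (0 of 20), though 1 did without cKO replicate 3 or WT replicate 2. With all 6 libraries only the 7 sites with a peak in all 3 cKO libraries could show that pattern. Its share among regions of the genome was not counted.

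The Plekhm3 site at +54.4 kb (chr1:64790818-64793390) had 806, 960 and 745 bp in cKO, against 1568, 2573 and 1269 bp in WT, and the genotypes did not overlap. The mean was 837 ± 111 bp in cKO and 1803 ± 683 bp in WT (SD, n = 3 each), or 46.4% of WT in cKO. Its −log10 q was 4.99, 5.81 and 3.89 in cKO and 7.62, 7.93 and 4.63 in WT, and these overlapped.

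The Plekhm3 site at +116.4 kb (chr1:64852783-64855562) had 1214, 1133 and 1126 bp in cKO, against 2364, 2607 and 1527 bp in WT, again without overlap. Its mean was 1158 ± 48.9 bp in cKO and 2166 ± 567 bp in WT (SD, n = 3 each), or 53.4%. It was the strongest of the sites that were shorter in every cKO library, with a −log10 q of 10.3, 8.48 and 5.79 in cKO and 10.2, 9.97 and 7.26 in WT. At both Plekhm3 sites the cKO peaks lay within the WT ones, as 0 bp under any cKO peak fell outside every WT peak.

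Further out the mark was sparse. The site at +181.3 kb inside Plekhm3 (chr1:64918694-64919502) had 0, 462 and 0 bp in cKO, against 591, 809 and 435 bp in WT, and cKO replicate 2 exceeded WT replicate 3 unless the lists were scaled. An intergenic site at +41.9 kb (chr1:64779229-64780151) had 0 bp in each cKO list and 505, 923 and 0 bp in WT. On the other side, the intergenic site at -104.1 kb (chr1:64633497-64633865) had the same pattern, with 0 bp in each cKO list and 189, 349 and 0 bp in WT. A site in Creb1 at -199.6 kb had 0 bp in each cKO list and 631, 0 and 0 bp in WT. The converse held at +123.1 kb inside Plekhm3, with 0, 0 and 170 bp in cKO and 0 bp in each WT list. In all, 9 sites had peaks in WT lists only and 1 in cKO lists only. Of the 9, 6 rested on a single WT library, and the 1 rested on a single cKO library. The share of such sites in the genome was not counted. WT replicates 1 and 2 had the longest lists, so nothing is read from these counts. The 4 sites with every unscaled cKO value lower, from -17.9 to +116.4 kb, spanned 136 kb. After scaling there were 5, with the site at +181.3 kb added. Together the 4 covered 2245, 2293 and 2258 bp in cKO, against 6196, 7377 and 4945 bp in WT. The 4 were picked for their lower cKO values, so their sums had to separate the genotypes. Unscaled, the number of such sites was 6 without cKO replicate 2, 10 without WT replicate 3 and 4 without any 1 of the other libraries.

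**Figure D4:**
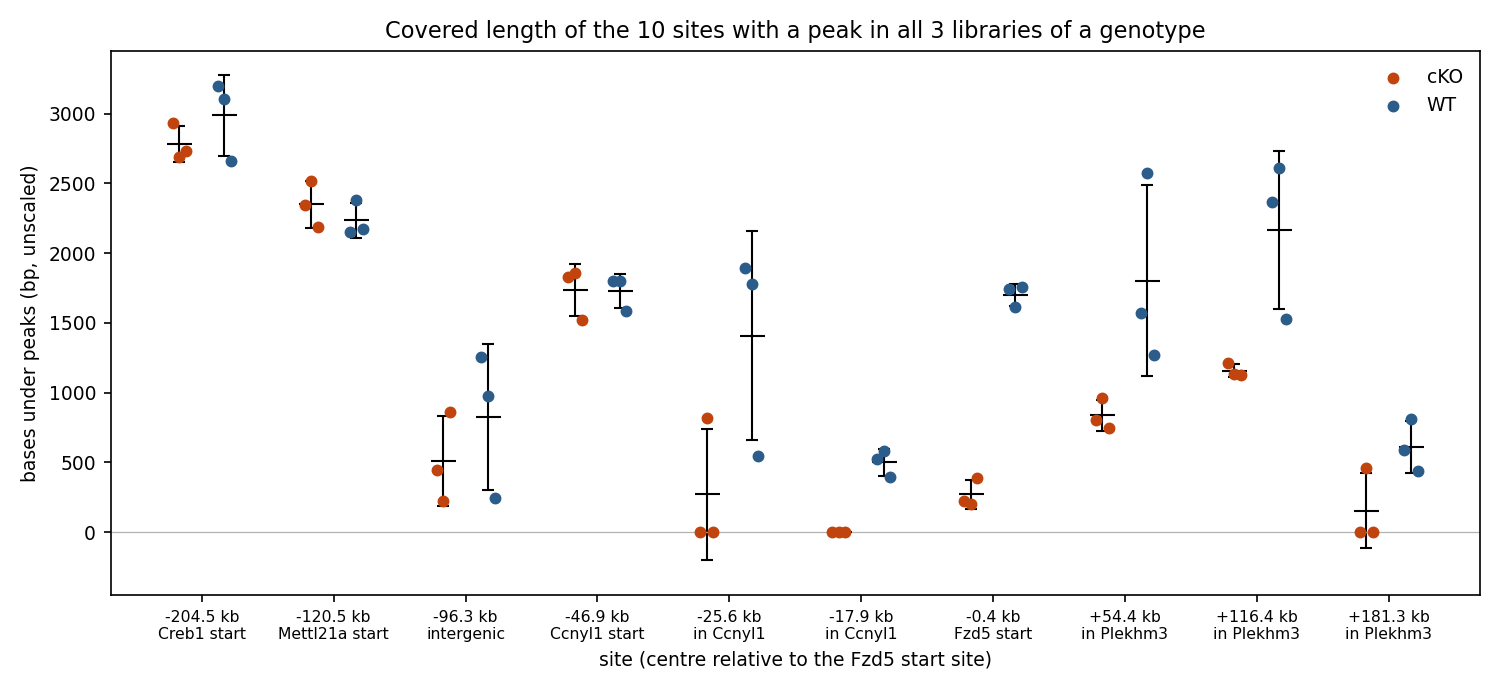
Bases under peaks (unscaled, y axis) at the 10 sites with a peak in all 3 libraries of a genotype, ordered along the chromosome; points are libraries, cKO left of WT, and bars are mean and SD (n = 3 each). The 4 sites at -17.9, -0.4, +54.4 and +116.4 kb have every cKO point below every WT point, and the 4 sites to the left of -25.6 kb overlap.

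Sites at the other promoters overlapped in extent. The Creb1 promoter region (chr1:64531583-64534895), at the gene of the cAMP-responsive transcription factor, had 2933, 2688 and 2729 bp in cKO, against 3197, 3108 and 2658 bp in WT. The Mettl21a promoter region (chr1:64615986-64618582), at a protein lysine methyltransferase gene, had 2348, 2518 and 2184 bp in cKO, against 2154, 2382 and 2171 bp in WT. Both overlapped between genotypes and were among the strongest peaks of the lists, with a −log10 q at Mettl21a of 58.3, 57.5 and 42.1 in cKO and 51.8, 48.2 and 43.1 in WT. The intergenic site at -96.3 kb (chr1:64640763-64642050) had 446, 220 and 860 bp in cKO and 1255, 976 and 247 bp in WT, which overlapped. Just above the window, 18.3 kb beyond its end, the region over the Plekhm3 start (chr1:64956073-64957471) had 1247, 1262 and 1103 bp in cKO, against 1220, 1399 and 1284 bp in WT, and also overlapped.

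In 10 kb bins, 45 tiled the window and 10 held a peak in all 3 libraries of a genotype. Of these 10, 6 had every scaled cKO value below every WT value and 0 had every one above, against 8.03% and 7.85% of such bins in the genome. Among the 6, the bin at chr1:64720001-64730000 held only the end of the site at -17.9 kb. It had 77.5, 130 and 16.9 bp in WT and 0 bp in each cKO list. The rest of that site lies in the bin below, so the 6 bins are not 6 separate sites. The window was chosen around a difference of this kind, so the count describes its extent.

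The other protein-coding genes whose bodies reach into the window are described in the same way, with no test, since the window was chosen on this difference. On the scale of log2(scaled covered length + 500 bp), cKO minus WT was -0.00 ± 0.11 (SE) for Creb1 and 0.04 ± 0.11 for Mettl21a, and the genotypes overlapped for both. Plekhm3 had 3725, 3858 and 3708 bp after scaling in cKO, against 6080, 8219 and 5869 bp in WT, with no overlap, and a difference of -0.75 ± 0.12 (SE). Much of that length lies in the sites above.

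The same measure was then read at other genes of Wnt reception, from lists written with earlier results of these data known. Of the 9 other Frizzled genes, 7 had enough covered length to be tested and 0 passed in either direction. Over all 15355 genes, 0.124% passed as longer in cKO and 0.156% as shorter, so a count of 0 in so short a list says little. The median log2 difference of the 7 was 0.05, against 0.03 over all genes, and they ranged from -0.13 to 0.25. The 4 with the smallest p were Fzd1 (0.25, limma adjusted p = 0.377), Fzd9 (0.15, 0.693), Fzd2 (-0.13, 0.797) and Fzd7 (0.10, 0.831).

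Of 19 co-receptor and receptor regulator genes tested, 1 passed as longer in cKO (0.124% over all genes) and 0 as shorter (0.156%), with a median of -0.03. The gene that passed was Kremen1, which encodes a receptor for the Wnt inhibitor Dickkopf. It had 12714, 13751 and 10875 bp after scaling in cKO, against 6739, 8837 and 6088 bp in WT (log2 difference 0.76 ± 0.12, SE, limma adjusted p = 0.0427). Kremen1 did not pass when any 1 of the 6 libraries was left out. Lgr6, a receptor for R-spondins, had 1146, 1125 and 1241 bp in cKO against 2448, 4443 and 2273 bp in WT (-1.04 ± 0.19, SE) and did not pass (limma adjusted p = 0.0667). Znrf3, a ubiquitin ligase that removes Frizzled receptors from the membrane (0.33, limma adjusted p = 0.300), and Ptk7, a Wnt co-receptor (-0.23, 0.536), did not pass either.

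In the list of cyclin Y, its kinases and their substrate Lrp6, 7 genes besides Ccnyl1 were tested, and 0 passed, with a median of -0.07. Over all genes 0.124% passed as longer and 0.156% as shorter, the shares to set beside this list and the ligands and targets below. Lrp6 is also counted among the co-receptors above, and Axin2, Lgr5, Rnf43 and Znrf3 are both on that list and on the list of Wnt targets. The 7 genes of the cyclin Y list included Cdk15 (0.28, limma adjusted p = 0.405), Cdk17 (-0.15, 0.699), Cdk18 (-0.13, 0.769) and Cdk14 (-0.11, 0.796). Of 13 Wnt ligand genes tested, 0 passed, with a median of 0.07, and the smallest p belonged to Wnt3 (0.44, limma adjusted p = 0.452), Wnt2b (-0.47, 0.513), Wnt7b (-0.24, 0.543) and Wnt3a (0.27, 0.571). Of 11 genes that Wnt signalling is known to switch on, 0 passed, with a median of -0.01. Tcf7, a transcription factor gene of the pathway, had 2917, 3114 and 2636 bp in cKO against 4169, 4480 and 3776 bp in WT (-0.45 ± 0.09, SE) and did not pass (limma adjusted p = 0.101), nor did Nkd1 (0.18, 0.712) or Apcdd1 (-0.16, 0.776).

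**Figure D5:**
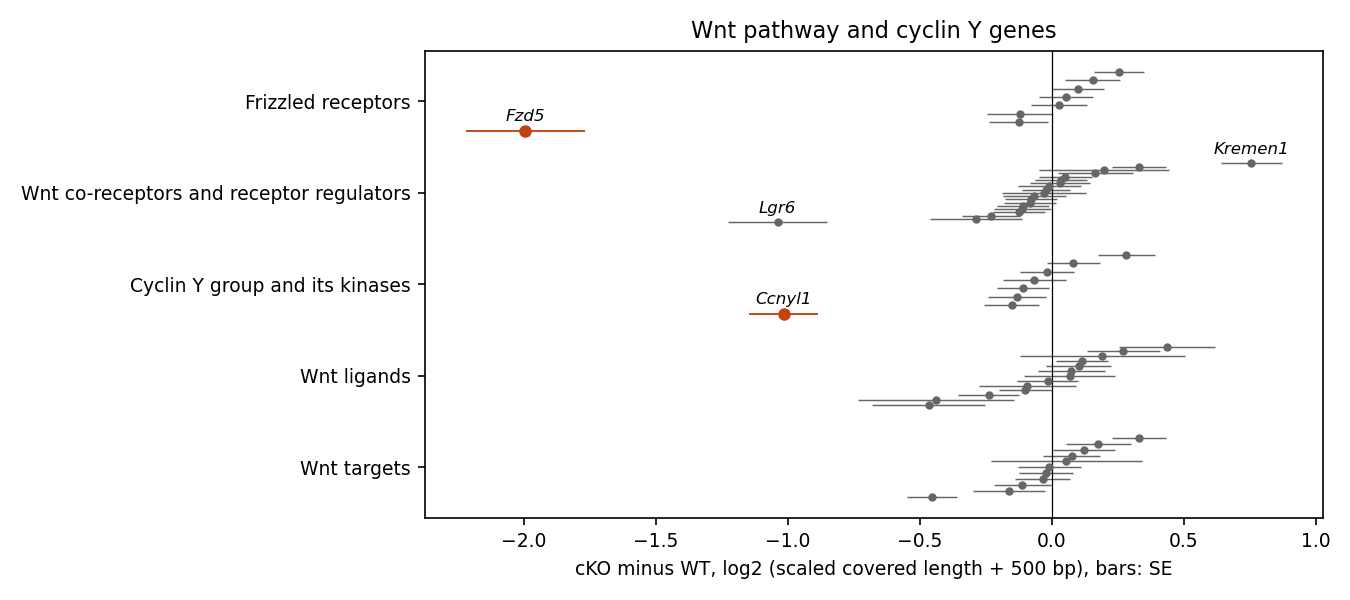
The cKO minus WT difference in log2(scaled covered length + 500 bp) for the tested genes of 5 lists, 1 point per gene with its SE. Fzd5 at -2.00 and Ccnyl1 at -1.02 lie to the left of the other members of their lists, and Kremen1 lies at 0.76.

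The genes outside the window whose scaled covered length followed Fzd5 most closely over the 6 libraries were Heatr9 and Ccl5 (Pearson r 0.985, sharing the same peaks), Fam168a (0.985), Bdh2 (0.984) and Fhad1 (0.983). Their log2 differences were smaller, from -0.39 to -0.32, and none passed (limma adjusted p from 0.197 to 0.276). These correlations are over 6 libraries that share genotype and list length with Fzd5.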

How the data were processed

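H3K27ac libraries of whole cortex were compared, 3 cKO and 3 WT; the 6 input libraries were not analysed here. MACS2 2.1.1, Bowtie2 2.2.8, cutadapt and FastQC are named with mm10 in the submitters' processing notes, per the labels, and the role of each is not given in the sources used here. Each library's deposited broad peak list has positions, a fold enrichment ratio per peak, and −log10 p and −log10 q values, all from the authors' peak caller. The ratio and −log10 values served to describe or filter peaks within a list.

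Peaks that overlapped or touched across lists were merged into regions. Covered length is the number of bases under peaks. Per gene it was summed over the body and 20 kb on each side, scaled to the same total over all gene windows, and transformed as log2(value + 500 bp). Genes with a mean of at least 1000 bp were tested with limma 3.58.1 (R 4.3.3), with the batch read from library identifiers as covariate, and Benjamini-Hochberg adjustment over 15355 genes at a threshold of 0.05. Every adjusted p is from limma. Wider or more numerous peaks raise covered length, and taller ones do not. Python 3.11.15, numpy 2.4.6, pandas 2.3.3 and matplotlib 3.10.9 were used, and the scripts were tested on simulated data. Genes and promoters are from RefSeq tables of GRCm38.p6, without exons.

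The members, gene lists, rules and tests were chosen with earlier results of these data known. Named are Fzd5, Ccnyl1, Prdm16, each protein-coding gene of the window, called list members and the 4 per list with the smallest p. Also named are the 5 genes most like Fzd5 and each region with a peak in all 3 libraries of a genotype. Added after values were seen were the sites at +41.9, -104.1, -199.6 and +123.1 kb, the split at the Ccnyl1 start and Kremen1's values without single libraries. Other settings tried were a −log10 q minimum of 5, equal-length lists of 48168 peaks, other scalings, pseudocounts, flanks, filters and merging rules, no batch term, a replicate block, and each library left out. The peak lists hold no counts, so no interval for depth can be given.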

Additional observations from a re-analysis of the deposited data

How the results depend on the processing

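At the Fzd5 promoter the peaks lie near the authors' threshold. With −log10 q of at least 5 no list kept one there, Fzd5 fell under the length filter and had no value, and 1 of the 4 sites with every cKO value lower remained, at +116.4 kb. In equal-length lists the Fzd5 promoter had 0, 0 and 387 bp in cKO and 1418, 0 and 1754 bp in WT, which overlapped, while the sites at -25.6, -17.9, +54.4 and +116.4 kb had every cKO value lower. Leaving out each library in turn, the number of such sites was 4 without cKO replicate 1 or 3 or WT replicate 1 or 2, 6 without cKO replicate 2 and 10 without WT replicate 3. Depth is unknown, so a base outside a peak is not shown to lack the mark.

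The Fzd5 difference of -2.00 was -2.47 in equal-length lists, -2.65 and -1.12 with pseudocounts of 100 and 2000 bp, -1.06 with 100 kb flanks, and -2.32 to -1.70 without single libraries. Ccnyl1 at -1.02 was -0.063 with −log10 q of at least 5, -0.74 with a pseudocount of 2000 bp, -0.66 with 5 kb flanks, -0.73 with 100 kb flanks, and -1.16 to -0.92 without single libraries. The window difference of -0.66 was -0.40 with −log10 q of at least 5, -1.23 with 50 kb on each side, and -0.71 to -0.60 without single libraries. The sign of these 3 differences was negative under each setting that gave a value. The Ccnyl1 value of -0.063 was within its SE of 0.10, and Fzd5 fell under the length filter with 5 kb flanks and had no value. Both genes and the window were chosen on this contrast, so the sign is a description.

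The Plekhm3 difference of -0.75 stayed at -0.75 with a replicate block, which cannot change it because each replicate number holds a library of each genotype. It was -0.59 with a pseudocount of 2000 bp, -0.72 with scaling to the list total, -0.69 with 5 kb flanks and -0.92 with 100 kb flanks. Under the 13 other settings it lay between -0.84 and -0.61.

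WT-only regions in the window numbered 1, and 0 with −log10 q of at least 5, 2 in equal-length lists, 3 with at least 50% of a region covered, 3 without cKO replicate 2, 4 without WT replicate 3, and 1 to 4 without single libraries. The converse count was 0 throughout. In the genome the 779 WT-only regions became 390 with −log10 q of at least 5 and 876 to 4494 without single libraries, and the 298 cKO-only regions became 630 in equal-length lists and 310 to 1016 without single libraries.

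The 43 genes called in all became 21 with the −log10 q minimum of 5, 13 without the batch term, 12 and 109 with pseudocounts of 100 and 2000 bp, 6 without the filter, 1 without scaling, 109 with scaling to the list total (chosen after seeing the data), 16 with quantile normalization, and 2 to 66 without single libraries. The 1 list gene called became 0 with 100 kb flanks, quantile normalization, unscaled values, unfiltered genes, a 100 bp pseudocount, no batch term, the −log10 q minimum of 5, and without any single library, and 2 with the replicate block, a pseudocount of 2000 bp and scaling to the list total. The causes were not tested.

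Same-numbered libraries correlated with r of 0.131, 0.0641 and 0.262 in their deviations from the group means, so the numbers were not taken to pair the samples; cKO replicate 1 correlated more with WT replicate 2 (0.168). Each replicate number holds 1 library of each genotype, so a replicate block cannot change a difference of group means. The differences of Fzd5 and of the window therefore stayed at -2.00 and -0.66, which says nothing of their stability. With that block 64 genes were called.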
